A study of Mus musculus with 5 samples.

Results

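The genes described here are 10 CC chemokines known from macrophages, Ccl2, Ccl3, Ccl4, Ccl5, Ccl6, Ccl7, Ccl8, Ccl9, Ccl12 and Ccl24, out of 19505 genes measured. They were chosen by symbol, with earlier results of these data known, and each was represented by 1 probe set on the array. Their RNA was measured on single-colour whole-transcript arrays in 3 MyD88-ko and 2 WT samples of tumour-associated macrophages, all from C57BL/6 mice aged 6 to 12 weeks that carried B16-F10 melanoma cells under the skin. MyD88-ko mice lack the adaptor that passes on signals of the IL-1 receptor family and of most Toll-like receptors; the labels name neither the allele nor the deleted exons. Cells were sorted at day 15 as CD45+, F4/80+ and CD11b+, with CD3-, B220- and NK1.1-bearing cells left out, and the growth protocol names spleen as their source although every label calls them tumour-associated. The labels allow mice of either sex, do not give the sex of a sample, and do not say whether mice were pooled or whether the samples came from separate mice, so the spread behind each test may be technical. The comparison asks which of these chemokines differed with MyD88.

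CC chemokines are small secreted proteins with a pair of adjacent cysteines near their start, and they guide leukocytes by binding G protein-coupled receptors. Ccl2, Ccl7 and Ccl12 attract classical monocytes through Ccr2, and Ccl3, Ccl4 and Ccl5 attract monocytes and T cells. Macrophages make many of them at rest and raise several after Toll-like receptor or IL-1 signals, through NF-kB among other factors, and in tumours they are known for bringing in further monocytes.

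The targeted gene, Myd88, had values of 7.73, 7.01 and 7.58 (log2) on the MyD88-ko arrays and of 8.46 and 8.40 on the WT arrays, and its difference of -0.995 did not reach the threshold of an adjusted p under 0.05 (limma with Benjamini-Hochberg adjustment over all genes, adjusted p = 0.179). Whether its probes lie in the deleted part is unknown. A background limit was set on each array at the 95th percentile of its negative-control probe sets, and it lay between 6.55 and 6.96. It was lower on the MyD88-ko arrays (6.55, 6.59 and 6.74) than on the WT arrays (6.91 and 6.96). A gene at the same level can therefore be above it in MyD88-ko alone. Of 10 measured macrophage markers, 9 were above the limit on all 5 arrays, led by Apoe, Lyz2 and Itgam. All 7 T cell, 7 NK cell, 6 B cell, 6 eosinophil, 9 mast cell or basophil and 8 endothelial markers were under it on every array, as were 6 of 7 fibroblast markers. Of 11 melanoma markers, 7 were above it on all arrays despite the CD45 gate, led by Tyrp1, Dct and Pmel. Neutrophil markers mostly went with genotype. Of 12, 11 had negative differences, and 6 passed the test over all genes and were lower in MyD88-ko, S100a8, S100a9, Lcn2, Retnlg, Cxcr2 and Stfa2l1. However, 4 of the 12, Stfa2l1 among them, were under the limit on all arrays, and Cxcr2 was above it on 1 WT array alone. The log2 of the summed signal of the list ran from 8.56 to 9.09 in MyD88-ko and from 11.34 to 11.86 in WT. Of 8 classical monocyte markers, Hp alone passed, lower, and the summed signal ran from 11.51 to 12.17 against 12.61 to 12.82. These calls needed nearly all arrays: without 1 array, between 0 and 1 gene of all passed. The 10 conventional dendritic cell markers, none of which passed, summed to between 8.64 and 9.43 against 9.48 and 9.97. The part of these cells in any difference below was not tested, and in bulk RNA fewer cells of a type and less RNA per cell cannot be told apart.

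Ccl24 lies on chromosome 5, and the other members lie on chromosome 11 in a pair of clusters. In RefSeq's gene order (GRCm38.p6) the first cluster runs Ccl2, Ccl7, Ccl11, Ccl12, Ccl8 and Ccl1. The second runs Ccl5, Ccl9, Ccl6, Ccl3 and Ccl4. RefSeq promoters were at hand for 5 members, Ccl3, Ccl6, Ccl8, Ccl9 and Ccl12. The 250 bases before the start are printed 5′ to 3′ for 4 of them on the gene's own strand: Ccl3, whose level was lower on every MyD88-ko array, Ccl8, whose level was higher on every MyD88-ko array, Ccl12, the neighbour of Ccl8, and Ccl9, the neighbour of Ccl6. They lie at chr11:83649379-83649628 (Ccl3, minus strand), chr11:82114935-82115184 (Ccl8, plus strand), chr11:82101595-82101844 (Ccl12, plus strand) and chr11:83578637-83578886 (Ccl9, minus strand). Capitals mark matches to the motifs searched.
Ccl3: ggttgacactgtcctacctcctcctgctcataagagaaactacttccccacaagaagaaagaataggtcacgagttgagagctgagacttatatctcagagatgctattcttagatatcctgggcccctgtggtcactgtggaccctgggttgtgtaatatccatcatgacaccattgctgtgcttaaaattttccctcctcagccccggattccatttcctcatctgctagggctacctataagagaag
Ccl8: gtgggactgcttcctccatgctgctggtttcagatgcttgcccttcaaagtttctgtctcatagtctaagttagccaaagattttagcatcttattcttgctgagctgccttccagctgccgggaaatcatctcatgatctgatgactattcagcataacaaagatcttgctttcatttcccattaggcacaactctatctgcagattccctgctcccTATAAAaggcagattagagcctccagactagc
Ccl12: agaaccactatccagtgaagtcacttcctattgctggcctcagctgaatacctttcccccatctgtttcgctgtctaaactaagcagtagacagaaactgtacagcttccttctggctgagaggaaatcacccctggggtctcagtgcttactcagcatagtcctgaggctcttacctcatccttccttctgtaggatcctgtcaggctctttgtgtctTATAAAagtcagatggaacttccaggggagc
Ccl9: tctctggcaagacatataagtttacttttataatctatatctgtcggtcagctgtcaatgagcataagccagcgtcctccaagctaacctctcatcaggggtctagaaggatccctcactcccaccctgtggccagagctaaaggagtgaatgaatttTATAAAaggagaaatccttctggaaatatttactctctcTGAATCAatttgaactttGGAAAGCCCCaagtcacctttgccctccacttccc

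The motifs searched were the NF-kB consensus, the AP-1 motif TGANTCA and the interferon response element on both strands, and TATAAA on the gene's strand. TATAAA began 32 bases before the start of Ccl8, 31 bases before that of Ccl12 and 92 bases before that of Ccl9, so 3 of 5 members held it, and it stood in 7.59% of all 32851 RefSeq promoters over the same 250 bases. An NF-kB match, 35 to 26 bases before the start and on the other strand, and an AP-1 match, 53 to 47 bases before it, were found in Ccl9 alone, and the motifs stood in 7.25% and 6.75% of all promoters. No member held the interferon element, which stood in 2.98%. The matches do not overlap, and none was found for Ccl3 and Ccl6 over this window. Aligned end to end, the promoters of the neighbours Ccl8 and Ccl12 had 54.5% identical columns, and the other 9 pairs of members had between 43.7% and 49.6%.

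None of the 10 chemokines passed the test over all genes, and their differences had no common sign. Of all 19505 genes 37 passed (0.19%; limma, Benjamini-Hochberg adjusted p under 0.05). The median difference of the 10, MyD88-ko minus WT, was -0.06 on the log2 scale, against 0.02 over all genes, with 5 differences negative and 5 positive. At an unadjusted limma p under 0.05 there were 4, Ccl3, Ccl4 and Ccl5 on the lower side and Ccl8 on the higher, against 12.6% of all genes (6.39% lower and 6.16% higher). The same 4 had arrays that did not overlap between the groups, 3 of 10 lower against 12.9% of all genes and 1 of 10 higher against 14.8%, or 4 against 27.8% in either direction. These background shares are higher among bright genes, and 8 of the 10 members were above the limit on all 5 arrays, as were 15.3% of all genes. Of those 2992 genes, 26.7% had an unadjusted p under 0.05, 25.2% did not overlap on the lower side and 22.2% on the higher. Of the 8 members among them, Ccl3 and Ccl4 were lower and Ccl8 higher without overlap, shares near or under this background. The other 2 members, Ccl5 and Ccl24, were under the limit on some arrays. Ccl5 was under it on MyD88-ko replicate 2, and Ccl24 on MyD88-ko replicate 2 and WT replicate 1.

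**Figure D1:**
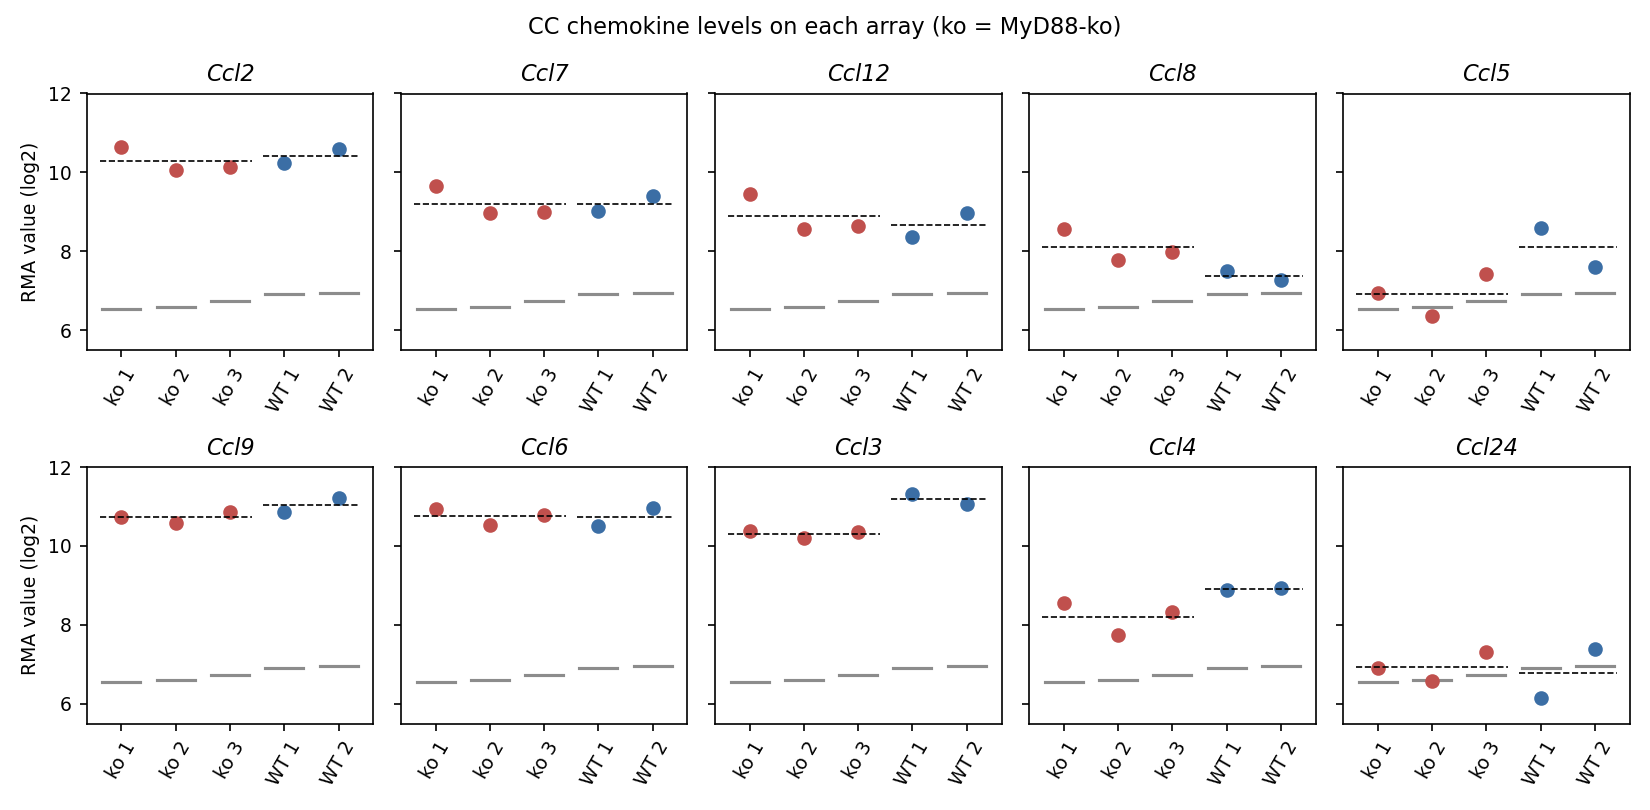
RMA values (log2) of the 10 CC chemokines on each array, with MyD88-ko in red and WT in blue, group means as dashed lines and each array's background limit as a grey bar. Ccl3 and Ccl4 lie lower on all 3 MyD88-ko arrays, Ccl8 lies higher, and Ccl24 straddles the limit of between 6.55 and 6.96.

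Ccl3, also known as MIP-1 alpha, a ligand of Ccr1 that draws in monocytes and T cells, came closest to passing. Its values were 10.38, 10.19 and 10.35 on the MyD88-ko arrays and 11.31 and 11.06 on the WT arrays. The MyD88-ko arrays lay close together, and all of them were under both WT arrays. Means of 10.31 ± 0.10 (SD, n = 3) and 11.18 ± 0.17 (SD, n = 2) gave a difference of -0.88 ± 0.13 (SE; 95% interval -1.18 to -0.57) or 1.83-fold. It did not pass over all genes (limma, adjusted p = 0.092), and at its SE a difference of 1.15 would have been needed. Among all 19505 genes the difference stood at the 1.56th percentile, and the residual spread of Ccl3 at the 40.2nd, the narrowest of the 10.

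Ccl4, or MIP-1 beta, is the neighbour of Ccl3 on chromosome 11 and likewise attracts monocytes and T cells. It had values of 8.55, 7.75 and 8.33 in MyD88-ko and of 8.89 and 8.93 in WT. MyD88-ko replicate 2 was the lowest array, and replicate 1 lay nearest to WT. The means of 8.21 ± 0.41 (SD, n = 3) and 8.91 ± 0.03 (SD, n = 2) gave a difference of -0.70 (95% interval -1.27 to -0.13), or 1.62-fold, which did not pass (limma, adjusted p = 0.302).

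Ccl5, or RANTES, a ligand of Ccr1 and Ccr3 made by T cells, NK cells and activated macrophages, had the largest difference of the 10. Its values were 6.94, 6.38 and 7.43 in MyD88-ko and 8.59 and 7.61 in WT. The groups did not overlap, though MyD88-ko replicate 3 and WT replicate 2 lay close, and MyD88-ko replicate 2 was under the background limit. Group means were 6.92 ± 0.53 (SD, n = 3) and 8.10 ± 0.69 (SD, n = 2), and the difference of -1.18 (95% interval -2.12 to -0.25), or 2.27-fold, did not pass (limma, adjusted p = 0.296). It was -0.69 without WT replicate 1 and -1.67 without WT replicate 2. The residual spread of Ccl5 stood at the 99.1st percentile of all genes. The markers of T cells and NK cells were under the limit on all arrays in both groups, where the brightest of the first list, Cd4, Cd8a and Cd2, averaged 4.87, 3.86 and 3.80 in MyD88-ko and 4.40, 4.06 and 3.54 in WT. The log2 of the summed NK cell signal ran from 5.62 to 5.81 in MyD88-ko and from 5.84 to 6.17 in WT, and the brightest NK cell marker, Klrk1, averaged 3.20 and 4.19 (limma, adjusted p = 0.265). The part of these low signals in the difference of Ccl5 was not tested.

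Ccl6 and Ccl9, rodent chemokines that bind Ccr1 and are made by macrophages without stimulation, lie side by side between Ccl5 and Ccl3. Ccl6 had values of 10.93, 10.52 and 10.79 in MyD88-ko and of 10.50 and 10.96 in WT. The MyD88-ko arrays all lay between the WT arrays, and the difference was 0.02 (95% interval -0.43 to 0.47). Ccl9 had values of 10.73, 10.57 and 10.87 against 10.87 and 11.21. MyD88-ko replicate 3 and WT replicate 1 were level, so the groups overlapped, and the difference was -0.32 (95% interval -0.68 to 0.05; limma, adjusted p = 0.467).

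Ccl2, Ccl7 and Ccl12, the monocyte chemoattractants that bind Ccr2, were well above the limit on all arrays and had no difference beyond their spread. Ccl2, also called MCP-1, had values of 10.65, 10.07 and 10.14 in MyD88-ko and of 10.24 and 10.59 in WT. Ccl7, or MCP-3, had values of 9.67, 8.97 and 8.99 against 9.02 and 9.40. Ccl12, or MCP-5, had values of 9.46, 8.57 and 8.63 against 8.38 and 8.97. In all 3 genes MyD88-ko replicate 1 was the highest of the 5 arrays and the other MyD88-ko arrays lay close together. The differences were -0.13 for Ccl2 (95% interval -0.64 to 0.38), 0.0022 for Ccl7 (-0.60 to 0.60) and 0.21 for Ccl12 (-0.55 to 0.98). The widths of these intervals do not show the groups to be alike.

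Ccl8, or MCP-2, which in mice acts through Ccr8, was the single member on the higher side without overlap. Its values were 8.58, 7.79 and 7.98 in MyD88-ko and 7.50 and 7.27 in WT. MyD88-ko replicate 1 stood above the other MyD88-ko arrays, as it did for the neighbours of Ccl8. Group means were 8.12 ± 0.41 (SD, n = 3) and 7.39 ± 0.16 (SD, n = 2), and the difference of 0.73 (95% interval 0.14 to 1.31), or 1.66-fold, did not pass (limma, adjusted p = 0.297). Without MyD88-ko replicate 1 it was 0.50. Ccl8 is a marker of some resident macrophages, and macrophage markers lay on the same side: of 10 measured, 8 had positive differences with a median of 0.29 and none passed, and the log2 of their summed signal ran from 13.83 to 13.87 in MyD88-ko and from 13.56 to 13.75 in WT. The part of this in the difference of Ccl8 was not tested.

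Ccl24, an eotaxin that attracts eosinophils through Ccr3 and is made by macrophages exposed to IL-4, had values of 6.90, 6.58 and 7.31 in MyD88-ko and of 6.16 and 7.40 in WT. The WT arrays were the lowest and the highest of the 5, and 1 array of each group was under the limit. The difference of 0.15 (95% interval -0.79 to 1.09) therefore rested on WT arrays that stood far apart, and its residual spread was at the 99.2nd percentile of all genes.

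**Figure D2:**
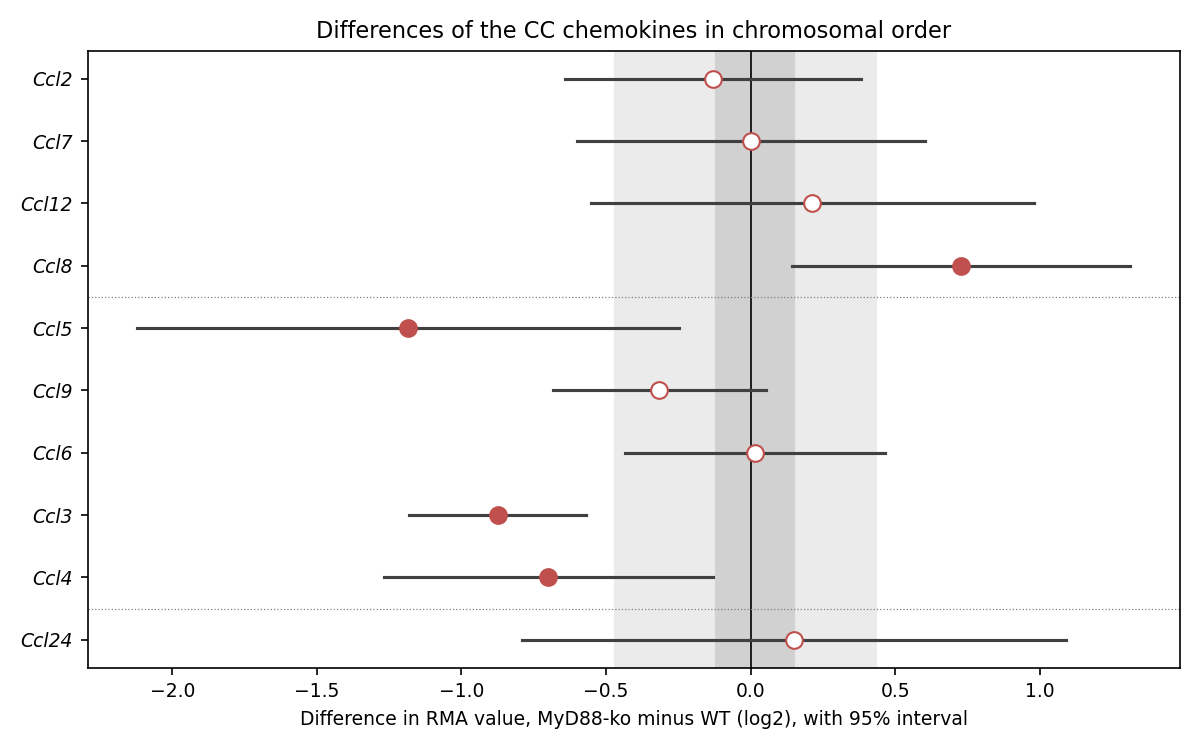
Difference in RMA value (log2), MyD88-ko minus WT, of each CC chemokine with its 95% interval, in chromosomal order; dotted lines part the Ccl2 to Ccl8 cluster, the Ccl5 to Ccl4 cluster and Ccl24. Filled points are genes whose groups did not overlap, and the grey bands hold the middle 50% and 90% of all 19505 genes; Ccl5, Ccl3, Ccl4 and Ccl8 lie outside both bands. The bands include genes under the background limit, and the middle 50% of genes above it on all arrays is wider (-0.22 to 0.18).

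By place, the members of the second cluster on chromosome 11 lay lower than those of the first. The 5 genes from Ccl5 to Ccl4 had a median difference of -0.70 and a range from -1.18 to 0.02, with 4 negative. The 4 genes from Ccl2 to Ccl8 had a median of 0.11 and a range from -0.13 to 0.73, with 3 positive. Within the second cluster Ccl6, between Ccl9 and Ccl3, was level. The split was seen after the values were known and carries no test. Within each array the log2 ratio of Ccl3 to Ccl8, whose size has no meaning across probe sets, was 1.81, 2.40 and 2.37 in MyD88-ko and 3.81 and 3.79 in WT, a difference of -1.60 that restates the differences of the 2 genes. This pair was picked after its values were seen, and no test was run. The ratio of Ccl3 to Ccl4 overlapped, at 1.83, 2.44 and 2.03 against 2.42 and 2.13, and its difference was -0.18.

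The order of the arrays within a group also differed between members. MyD88-ko replicate 1 was the highest of the 5 arrays for 4 members, Ccl2, Ccl7, Ccl12 and Ccl8, the members in the first cluster. The other genes of that cluster, Ccl11 and Ccl1, were under the limit on all arrays. MyD88-ko replicate 2 was the lowest for 6 members, Ccl2, Ccl3, Ccl4, Ccl5, Ccl7 and Ccl9. WT replicate 2 was the highest for 4, Ccl4, Ccl6, Ccl9 and Ccl24, and WT replicate 1 for Ccl3 and Ccl5. For Ccl3, Ccl4 and Ccl5 this order goes with genotype, as given above, and for Ccl2, Ccl7 and Ccl12 it does not. Over the 4 members of the first cluster the median deviation from the gene's mean was 0.56 on MyD88-ko replicate 1, 0.18 on WT replicate 2 and between -0.26 and -0.19 on the other 3 arrays.

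**Figure D3:**
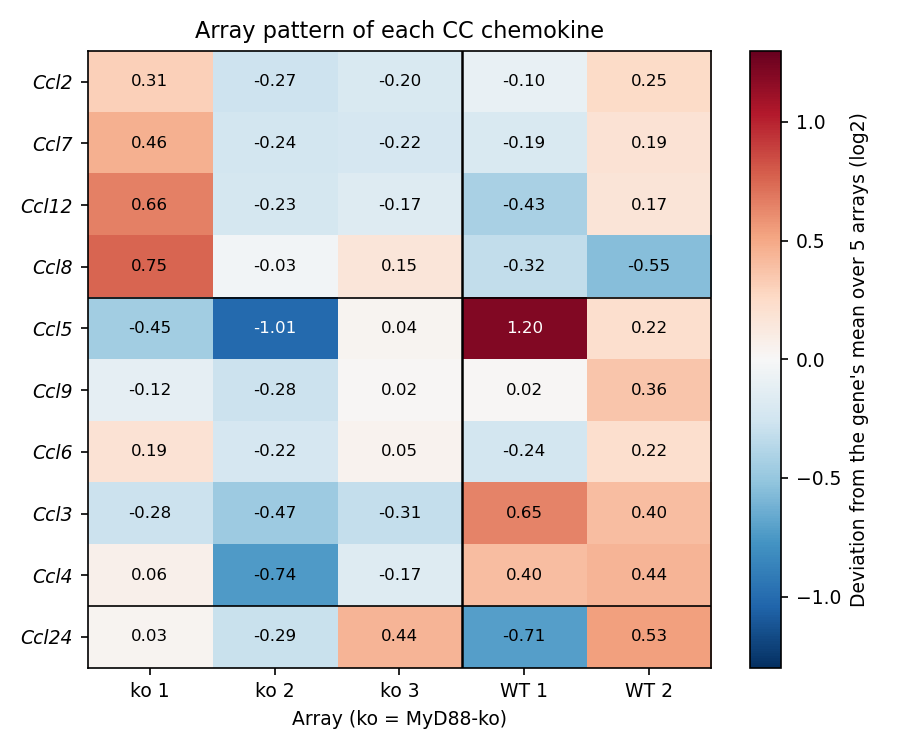
Deviation of each value from the gene's mean over the 5 arrays (log2; red above, blue below), with genes in chromosomal order and the black vertical line between MyD88-ko and WT. The top block, Ccl2 to Ccl8, is highest on MyD88-ko replicate 1, and Ccl3, Ccl4 and Ccl5 are high on both WT arrays.

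Of 8 measured receptor genes, 3 were above the limit on all arrays, Ccr1, Ccr2 and the atypical Ccrl2, and 5 on none. At an adjusted p under 0.05 (limma) 0 passed, and at an unadjusted p under 0.05 there were 3. Ccr2, the receptor of Ccl2, Ccl7 and Ccl12 and a marker of classical monocytes, had values of 8.33, 7.51 and 8.63 in MyD88-ko and of 10.003 and 9.34 in WT. Ccr1, the receptor of Ccl3, Ccl5, Ccl6 and Ccl9, had values of 8.31, 7.37 and 7.99 against 9.23 and 9.06. Ccrl2, a decoy-like receptor that binds chemerin and does not signal on its own, had values of 8.78, 8.23 and 8.97 against 9.62 and 9.61. For these 3 genes every MyD88-ko array lay under both WT arrays, which held for 12.9% of all genes and 25.2% of bright genes, and the differences were -1.51 for Ccr2, -1.25 for Ccr1 and -0.95 for Ccrl2 (limma, adjusted p = 0.199, 0.176 and 0.191). The ligands of Ccr2 had differences between -0.13 and 0.21. Ccr3 and Ccr8, the receptors of Ccl24 and Ccl8, stayed under the limit throughout and averaged 3.36 and 3.74 in MyD88-ko. Of 8 classical monocyte markers, a list that holds Ccr2, 7 lay on the same side, and the median difference was -1.65. Of the 3 brightest, Plac8 was lower, at -1.70, while Fn1 and F13a1 overlapped between the groups, at -0.12 and 0.14. The part of these markers in the receptor differences was not tested.

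The CC chemokines outside the 10 were mostly not above background. Of 12 measured, 11 were under the limit on all arrays and 0 passed; the median difference was 0.02. Ccl22, a dendritic cell and macrophage product that attracts regulatory T cells, was above it throughout, at 7.19, 8.84 and 9.43 in MyD88-ko and 9.62 and 9.86 in WT. MyD88-ko replicate 1 was the lowest array, and the groups did not overlap. The difference was -1.26 (95% interval -2.75 to 0.23; limma, adjusted p = 0.475). Ccl26 and Ccl19, the other 2 of the 3 genes with the lowest p in that list (limma, adjusted p = 0.189 and 0.501), had means under 4 in both groups.

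Among the 17 CXC, CX3C and XC chemokines, 1 passed and the median difference was -0.10. Cxcl2, a neutrophil attractant made by macrophages, had values of 9.75, 9.43 and 9.82 in MyD88-ko and of 11.14 and 11.35 in WT, and it fell 2.98-fold (limma, adjusted p = 0.039). Leaving out any 1 array ended this call (adjusted p between 0.12 and 0.49). Its relatives Cxcl3 and Cxcl1 had differences of -1.68 and -1.48 that did not pass (limma, adjusted p = 0.123 and 0.173), and since no MyD88-ko array and 1 of 2 WT arrays had Cxcl1 above the limit, its level in MyD88-ko was at least 1.39-fold lower by the mean of both WT arrays. The difference of Cxcl2 was -1.57 and that of Ccl3 -0.88, and whether the 2 differ was not tested.

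Genes listed as regulators of chemokine transcription and mRNA decay were mostly lower in MyD88-ko. The list was chosen with earlier results of these data known, so its counts describe the list and carry no test. Of 22 measured, 21 had negative differences, 16 were lower without overlap (12.9% of all genes and 25.2% of bright genes were) and 2 passed over all genes, both lower; the median was -0.52. Nfkbia, the inhibitor that holds NF-kB in the cytoplasm and is itself an NF-kB target, had values of 9.33, 9.06 and 9.27 against 10.55 and 10.70, and it fell 2.64-fold (limma, adjusted p = 0.034). Nfkbiz, an inducible nuclear partner of NF-kB, had values of 7.65, 7.23 and 7.78 against 9.29 and 9.41, and it fell 3.47-fold (adjusted p = 0.039). Tnfaip3, a further NF-kB feedback inhibitor, had a difference of -1.27 that did not pass (adjusted p = 0.104). Zfp36, which speeds the decay of AU-rich mRNAs, was at means of 10.01 and 10.68 and Zc3h12a, an RNase of inflammatory mRNAs, at 6.54 and 7.52; neither passed. Both calls, too, were lost without any 1 array (adjusted p between 0.12 and 0.49). The NF-kB subunit gene Rela was at 9.06 and 9.21.

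**Figure D4:**
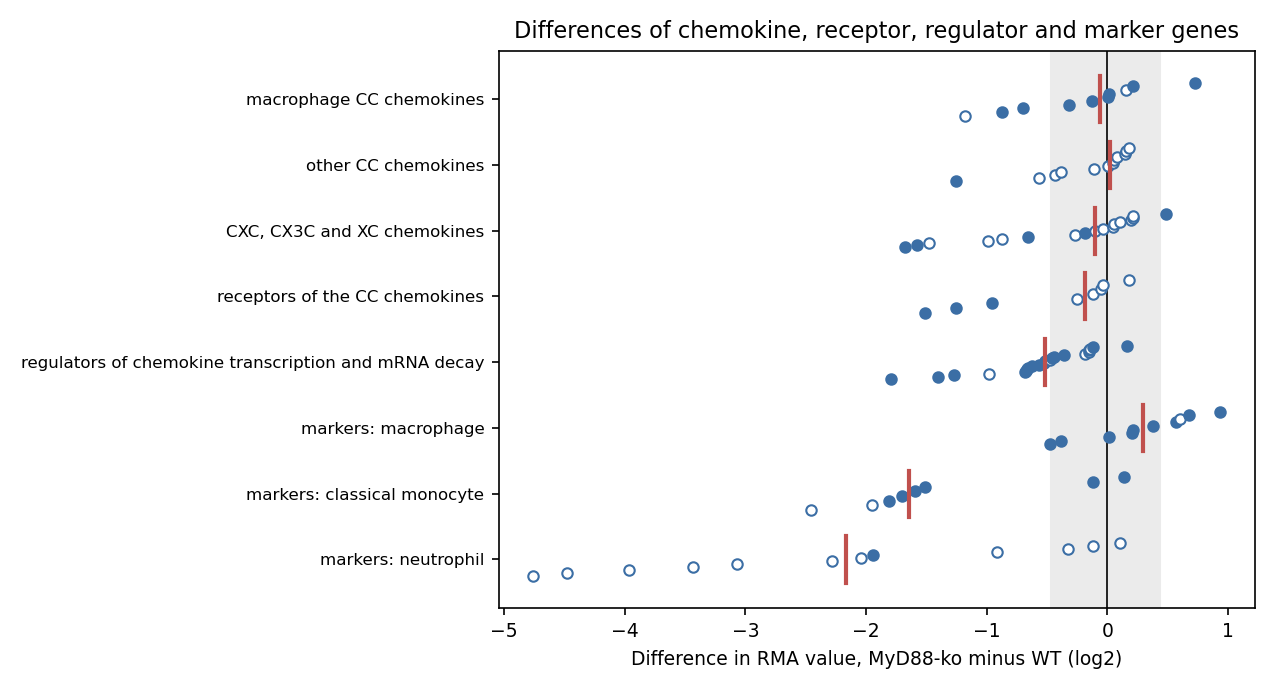
Difference in RMA value (log2), MyD88-ko minus WT, of each gene of 5 gene lists and 3 marker lists; filled points are above the background limit on all 5 arrays, red lines are list medians and the grey band holds the middle 90% of all genes. The macrophage CC chemokines spread on both sides of 0 around a median of -0.06, while regulators, monocyte markers and neutrophil markers lie mostly below 0. The lists were chosen with earlier results of these data known.

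Leaving out arrays in turn kept the sign of Ccl3, Ccl4, Ccl5, Ccl8 and Ccl9 in all 5 runs. Ccl3 ran from -0.999 to -0.75, Ccl4 from -0.87 to -0.47, Ccl8 from 0.50 to 0.89 and Ccl9 from -0.49 to -0.14. The signs of the other 5 members turned in at least 1 run, and Ccl24 ran from -0.47 without WT replicate 1 to 0.77 without WT replicate 2. The runs reuse the same arrays, so a kept sign is close to fixed for groups that do not overlap.

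**Figure D5:**
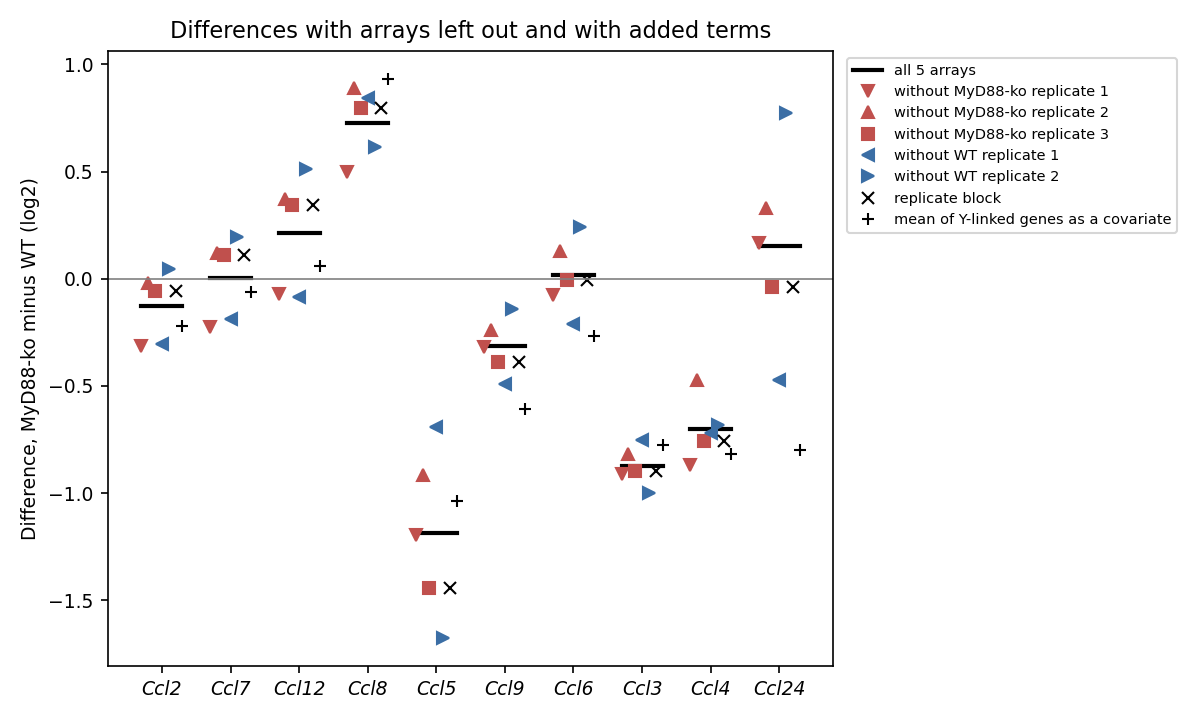
Difference of each CC chemokine (log2), MyD88-ko minus WT, with all 5 arrays (black bar), with each array left out (red for MyD88-ko, blue for WT), with the replicate number as a block (cross) and with a Y-linked covariate (plus). Ccl3, Ccl4, Ccl5 and Ccl9 stay below 0 and Ccl8 above it, while Ccl24 runs from -0.80 to 0.77.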

How the data were processed

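RNA of 5 arrays (3 MyD88-ko, 2 WT) was analysed from the deposited table of log2 values, which the authors had made with RMA (Affymetrix Expression Console 1.1), as the submitters' processing notes record. RMA corrects background, normalizes arrays by quantiles and summarizes each probe set. The sources used here do not name the genome build. Of 28846 rows, 19572 carried 1 gene symbol, and the probe set with the highest mean was kept for each of 19505 genes. The members and lists were chosen with earlier results of these data known. All genes went into 1 fit (limma 3.58.1, R 4.3.3; lmFit, eBayes, genotype as the only term, 3 residual degrees of freedom), with Benjamini-Hochberg adjustment over all genes and a threshold of 0.05. The script was tested on simulated data.

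The rule for named genes gave Myd88, the 10 members, from each gene list the genes that passed or the 3 with the lowest p, and from each marker list the 3 brightest genes and those that passed. Ccl1, Ccl11, Ccr3, Ccr8, Rela, Zfp36, Zc3h12a, Spic, Treml4, Wfdc17, Rffl and Taf15 were named after their values were seen. The background limit was the 95th percentile of 5222 negative-control probe sets on each array. The number of arrays limits the precision. Promoters came from RefSeq (GRCm38.p6) and were aligned with Biopython 1.88. Protein identity could not be computed here, since no protein sequences were used. Alternatives were 3 other scalings, 2 filters on level, robust and trended moderation, averaged probe sets, weighted arrays, a replicate block, a Y-linked covariate, each array left out in turn, 2 thresholds, 2 background limits and, added after the data were seen, a fit of all transcript rows.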

Additional observations from a re-analysis of the deposited data

How the results depend on the processing

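No CC chemokine passed an adjusted p of 0.05 under any of the 17 refits run, and with all 5 arrays and no added term 1, Ccl3, passed at 0.1. The lowest adjusted p was 0.063 for Ccl3 (limma, equal array medians; up to 0.563 elsewhere) and 0.054 for Ccl5 (replicate block; up to 0.747 elsewhere). Ccl3, Ccl4, Ccl5, Ccl8 and Ccl9 kept their sign in all 17. The median of the 10 ran from -0.39 to 0.12 with 1 array left out, turning positive without MyD88-ko replicate 2 (0.05) and without WT replicate 2 (0.12), and it was -0.44 with the Y-linked covariate. That covariate did not overlap between the groups and cannot be told apart from genotype; it put Ccl24 at -0.80 and Ccl6 at -0.27. Of all genes, 56 passed after quantile normalization again, 60 with equal medians, 65 with cyclic loess, 15 with array weights, 0 with the Y-linked covariate (1506 at an unadjusted limma p under 0.05), 84 at an adjusted p under 0.1 and 3 under 0.01. With the replicate number as a block 70 passed, and no member did. Deviations of same-numbered arrays from their group means were correlated at r of 0.06 and 0.10 over 2 pairs. The deviations of the 2 WT arrays mirror each other. These values therefore cannot decide whether same-numbered arrays share more than a number. Without 1 array, between 0 and 1 gene passed, so the calls of Cxcl2, Nfkbia and Nfkbiz were lost without each array in turn (adjusted p between 0.12 and 0.49); the block ended the call of Nfkbia (0.054) and array weights ended all 3 (0.053 to 0.063). The cause was not tested. With the stricter limit, the 99th percentile of negative controls, 4 of 10 members lay above it on all arrays rather than 8, and 10 did with the 90th percentile.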

Other observations

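The genes that flank the chemokine clusters were mostly not above background. The neighbours were the 5 measured genes before and the 5 after each run of members, Ccl2 to Ccl8 and Ccl5 to Ccl4. Here Ccl1 counted as the first gene after Ccl8. Rffl, Taf15 and Wfdc17 were the flanking genes above the limit on all arrays. Wfdc17, a secreted whey acidic protein family member next to Ccl4, had means of 8.56 and 8.95 and was lower on every MyD88-ko array, with a difference of -0.39 that did not pass (limma, adjusted p = 0.362). Rffl, a ubiquitin ligase gene beyond Ccl1, was at 6.99 and 7.43 (adjusted p = 0.320), and Taf15, an RNA-binding protein gene before Ccl5, was level at 7.45 and 7.44.

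The 8 measured genes listed as red pulp macrophage markers were split, with 6 positive and 2 negative differences, a median of 0.54 and none that passed. The log2 of their summed signal ran from 11.81 to 12.07 in MyD88-ko. In WT it was 11.34 on replicate 1 and 12.13 on replicate 2, so the WT arrays lay on both sides of MyD88-ko. The 3 brightest were Hmox1, Vcam1 and Siglec1. Hmox1 (11.07 and 11.94 in WT) and Vcam1 (5.05 and 7.03) were lowest on WT replicate 1 and overlapped between the groups. Of the 8 genes, Treml4, above the limit on 1 WT array alone, was at least 1.47-fold lower in MyD88-ko. Siglec1 had values of 6.81, 6.87 and 6.92 in MyD88-ko and of 5.91 and 6.19 in WT, with means of 6.86 and 6.05. It was above the limit on all MyD88-ko arrays and on no WT array, but the limit itself was higher on the WT arrays. Spic, which defines those cells, was not above the limit on any array and averaged 3.49 and 5.16.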
